A study of Mus musculus with 8 samples.

Results

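Secreted Wnt antagonists and R-spondins are extracellular proteins that lower or raise the response of a cell to Wnt ligands. The 10 genes described here are the secreted frizzled-related proteins Sfrp1, Sfrp2 and Sfrp5, the dickkopf genes Dkk1, Dkk2 and Dkk3, the Wnt inhibitory factor Wif1, and the R-spondins Rspo1, Rspo2 and Rspo3. They were chosen by name, and all spots that were not controls and carried 1 of those names were taken. Each gene had 1 probe on the array, so the set was 10 of 55681 probes and 10 of the 24291 genes that could be tested.

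RNA was measured on 8 Agilent one-colour arrays of mouse cardiac outflow tract, the vessel through which blood leaves the embryonic heart, dissected at E10.5. Rescued Raldh2-/- embryos gave 4 pools, here called knockout pools 1, 2, 3 and 7, and their rescued wild type littermates gave 4 more, called wild type pools 1, 2, 5 and 7, with 4 tracts in each pool. Raldh2, now named Aldh1a2, makes retinoic acid from retinaldehyde, and the knockout embryos are labelled as homozygous for its loss. All dams, those of the wild type embryos included, ate food with 0.1 mg/g all-trans-retinoic acid between E7.5 and E8.5, so both groups had received an early supply and neither represents an unsupplemented embryo. The labels name no promoter or Cre for the allele and give no strain. The comparison concerns gene expression in embryos labelled as lacking this enzyme once that early supply has ended.

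Wnt ligands bind frizzled receptors and the coreceptors Lrp5 and Lrp6, which stabilises beta-catenin and activates TCF/LEF target genes. Secreted frizzled-related proteins and Wif1 bind the ligands outside the cell, whereas Dkk1 and Dkk2 bind the coreceptors, with Kremen proteins as partners. R-spondins act in the opposite direction: they bind Lgr receptors and the membrane ubiquitin ligases Rnf43 and Znrf3, which otherwise remove frizzled receptors from the surface. In the heart-forming region, Wnt signalling acts on the growth and differentiation of the progenitor cells that are added to the arterial pole.

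Each of these genes was read by a single 60-base probe, so the sequence that was measured is part of the result. The first 30 bases of each probe, 5′ to 3′ as the scanner files give them, follow with no base marked.
Sfrp1: ttaaaatagtcattccggagagtcagggaa
Sfrp2: tcggcatctaagtcttcaaacatttcgttg
Sfrp5: attattgctactgctgtggggccgctgatt
Dkk1: tactgtgttgtaaatcctcagtgtggcact
Dkk2: tcagagtgatgatgtcatcagaagtttata
Dkk3: gcctgtaaatcgcatctgaagataccacag
Wif1: ggctgatatctactcttccttttaggtttt
Rspo1: ccgtggtacacgtcacggatgacctgactt
Rspo2: ccttaggtcagtttgtccttagattatgaa
Rspo3: ggatactactttctaacaaggtgtatctag

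The files place these probes on mm9. The frizzled-related probes lie at chr8:24559438-24559497 on the plus strand (Sfrp1), chr3:83577864-83577923 on the plus strand (Sfrp2) and chr19:42272509-42272568 on the minus strand (Sfrp5). The dickkopf probes lie at chr19:30621424-30621483 on the minus strand (Dkk1), chr3:131842357-131842416 on the plus strand (Dkk2) and chr7:119259556-119259615 on the minus strand (Dkk3), and the Wif1 probe at chr10:120537079-120537138 on the plus strand. The R-spondin probes lie at chr4:124686270-124686329 on the plus strand (Rspo1), chr15:42852727-42852786 on the minus strand (Rspo2) and chr10:29172930-29172989 on the minus strand (Rspo3). The reference tables are on another build, so the exon or untranslated region under each probe was not looked up.

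A promoter window from RefSeq (GRCm38.p6), running from 250 bases before the start of the gene to 50 after it, was at hand for 6 of the 10 genes: Sfrp2, Sfrp5, Dkk1, Dkk2, Wif1 and Rspo1. These windows were searched on both strands for 2 motifs. The letters AGGTCA, a half-site of retinoic acid receptors, or their reverse TGACCT were in 0 of the 6 windows, against 5340 of the 32851 windows of the same length in the table (16.3%). The letters CTTTGA, the core of the TCF/LEF site, or their reverse TCAAAG were in 1 of 6, against 5257 of the 32851. That window belongs to Dkk1, a Wnt inhibitor that is itself a known target of Wnt signalling, and holds 2 matches, in capitals below, at chr19:30549447-30549746 on the minus strand. A match of this kind is a description of the letters and not evidence of a bound site.
Dkk1 promoter: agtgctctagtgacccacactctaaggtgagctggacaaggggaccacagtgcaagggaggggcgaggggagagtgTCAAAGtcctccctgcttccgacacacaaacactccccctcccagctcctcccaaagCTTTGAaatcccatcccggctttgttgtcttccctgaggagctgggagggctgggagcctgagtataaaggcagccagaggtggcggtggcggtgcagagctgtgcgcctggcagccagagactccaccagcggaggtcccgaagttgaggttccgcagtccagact

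Values below are the log2 processed signal minus the log2 of the 75th percentile of the same array, called the log2 signal. They are intensities of different probes, so they are compared between pools and not between genes. One array, that of wild type pool 1, was unlike the other 7: its median processed signal was 2023, against 40.0 to 83.0, and its median correlation with the other arrays across probes was 0.682, against 0.967 to 0.985. In log2 signal it was also the lowest of the 8 pools for 7 of the 10 genes. That rests on the scaling, as the 75th percentile of this array was 4211, against 659 to 1134 on the others. Before scaling, its processed signal was not the lowest of the 8 for any of the 10 genes. It was the highest for Sfrp1, Sfrp5, Dkk3, Wif1 and Rspo3. The differences between groups are therefore given over all 8 arrays and again over the 7 arrays without wild type pool 1. The knockout arrays lay in row 1 of the slide and the wild type arrays in row 2, so genotype and slide row cannot be told apart. As for the targeted gene, Aldh1a2 had log2 signals of 2.02, 2.01, 1.87 and 0.059 in knockout pools 1, 2, 3 and 7, against 1.92, 3.21, 2.98 and 3.65 in wild type pools 1, 2, 5 and 7. Its transcript was thus detected above background in each knockout pool, and wild type pool 1 lay among knockout pools 1 to 3. Where the probe lies relative to the deleted part of the gene is not given in the sources used here, so the pool labels are used as given. The difference was -1.45 (two-sided exact permutation p = 0.0857). Without wild type pool 1 the difference was -1.79 and no knockout pool reached a wild type pool (two-sided exact permutation p = 0.0571, the smallest that 35 assignments can give with both tails counted). Rarb, whose transcription retinoic acid is known to raise, was higher in every knockout pool than in every wild type pool. Its log2 signals were 1.87, 1.54, 1.88 and 2.00 in knockout pools 1, 2, 3 and 7, against -0.37, 0.62, 0.91 and 0.90 in wild type pools 1, 2, 5 and 7. The Rarb difference was 1.31 ± 0.34 (SE) over 8 arrays (limma adjusted p = 0.735) and 1.02 ± 0.14 over 7 (unadjusted p = 0.000162, limma adjusted p = 0.217). All 8 cardiomyocyte markers were well above background on every array. On the array of wild type pool 1, however, 94.7% of all spots were so called, against 53.3% to 63.2% on the others. Of the probes not so called on any other array, 87.5% were so called there, so this call says little for that array.

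For none of the 10 genes did the difference between rescued Raldh2-/- and rescued wild type pools pass the test, and for 9 of them over 7 arrays it was smaller than the SD between pools of 1 genotype. All 10 were well above background on all 8 arrays, though on that of wild type pool 1 most spots were so called. Of the 10, 0 passed an adjusted p of 0.05, either over 8 arrays (smallest limma adjusted p 0.735) or over 7 (smallest 0.510, for Dkk3). The background was 0% of all genes in both fits. At an unadjusted limma p of 0.05, 0 members passed in either fit, against 1.78% of all genes over 8 arrays and 10.6% over 7. The 2 groups overlapped for every member, whereas they did not overlap for 5.49% of all genes over 8 arrays and 11.4% over 7. Each array is 1 pool, so these tests measure the spread between pools and arrays together. In pools of whole tissue, fewer cells of a type and less RNA per cell cannot be told apart.

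**Figure D1:**
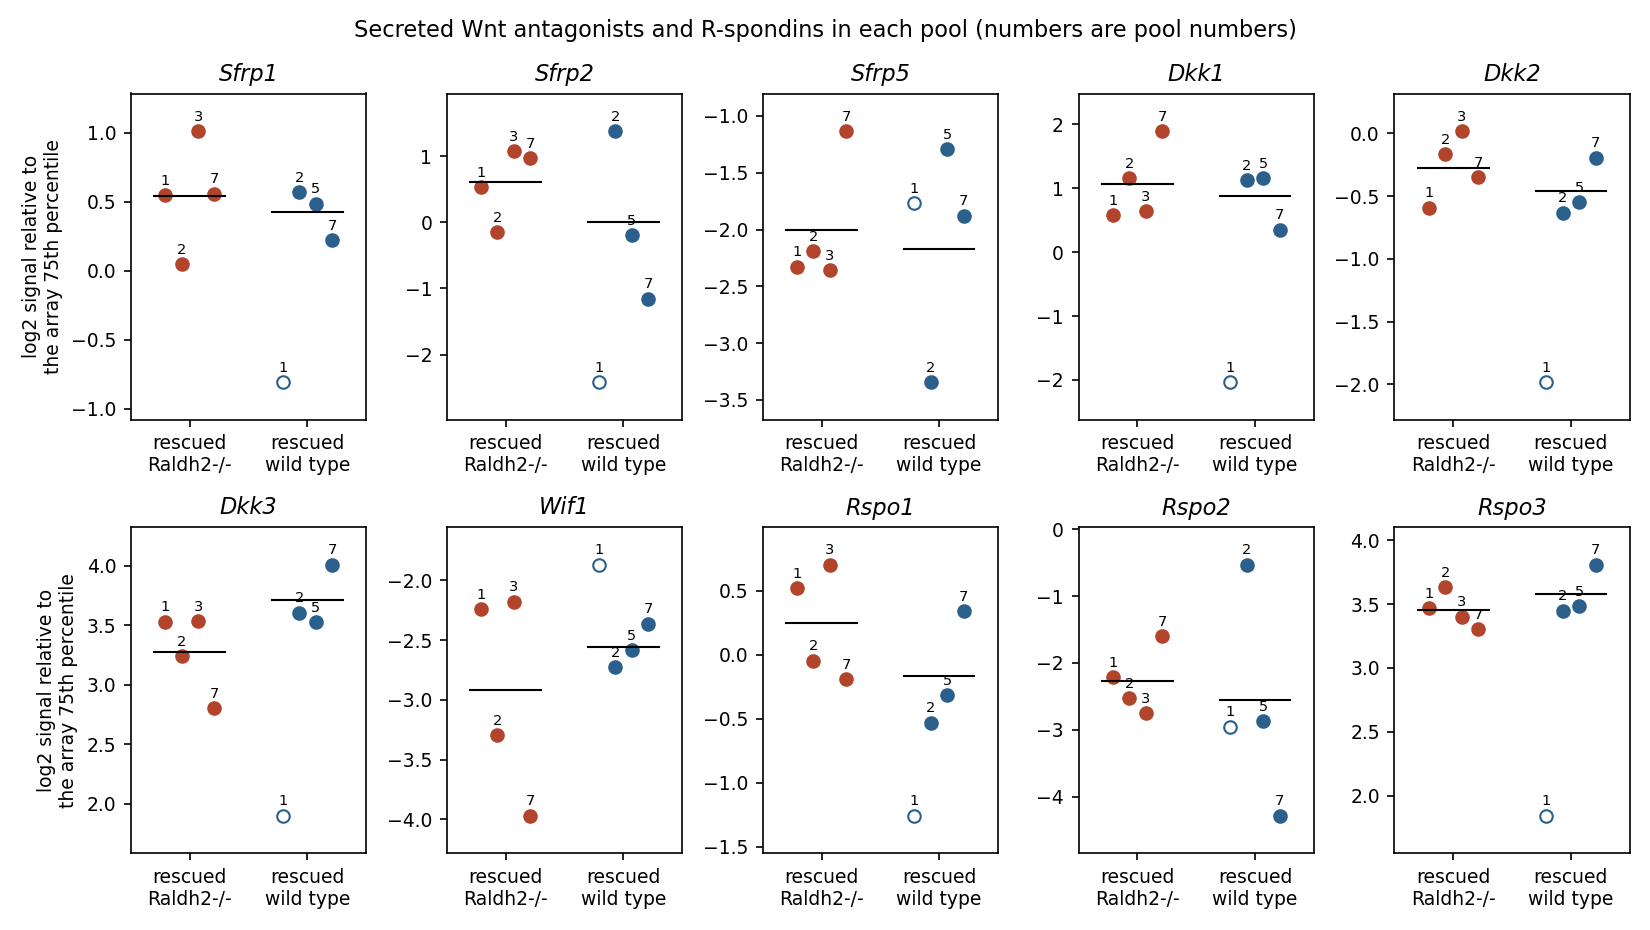
Log2 signal of each of the 10 genes (vertical axes, relative to the 75th percentile of the array) in every pool, rescued Raldh2-/- on the left and rescued wild type on the right of each panel. Horizontal bars are the mean of the 4 knockout pools and of the 3 wild type pools other than pool 1, which is the open circle. The groups overlap in all 10 panels, and the open circle is the lowest point in 7.

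Sfrp1 encodes a ligand-binding antagonist with a frizzled-like cysteine-rich domain. It had log2 signals of 0.55, 0.049, 1.01 and 0.56 in knockout pools 1, 2, 3 and 7, against -0.81, 0.57, 0.49 and 0.22 in wild type pools 1, 2, 5 and 7. Apart from the low wild type pool 1, the lowest and the highest pool were both knockout pools, so the wild type values lay inside the knockout range. The difference was 0.42 ± 0.38 (SE) over 8 arrays (limma adjusted p = 0.735) and 0.12 ± 0.22 over 7 (limma adjusted p = 0.858, 95% interval -0.41 to 0.64).

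Sfrp2, a close relative of Sfrp1, varied more from pool to pool, with an SD within groups of 0.916 over 7 arrays against 0.326 for Sfrp1. Knockout pools 1, 2, 3 and 7 had log2 signals of 0.53, -0.15, 1.07 and 0.97, against -2.41, 1.38, -0.20 and -1.15 in wild type pools 1, 2, 5 and 7. Wild type pool 2 was the highest of all and wild type pool 7 the lowest but for pool 1, with the knockout pools between them. Means were 0.60 ± 0.56 (SD, n = 4) in knockout pools and 0.0096 ± 1.28 (SD, n = 3) in wild type pools without pool 1. The difference of 1.20 ± 0.73 over 8 arrays (limma adjusted p = 0.735) became 0.59 ± 0.59 over 7 (limma adjusted p = 0.729), and its 95% interval of -0.79 to 1.98 held a 2-fold rise but not a 2-fold fall.

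Sfrp5 is the third antagonist of this kind. Its log2 signals were -2.33, -2.19, -2.36 and -1.13 in knockout pools 1, 2, 3 and 7, against -1.77, -3.34, -1.29 and -1.88 in wild type pools 1, 2, 5 and 7. Knockout pool 7 was above the other 3 knockout pools, which lay close together, while wild type pools covered a wider range on both sides of them. The difference was 0.067 ± 0.49 over 8 arrays (limma adjusted p = 0.946) and 0.17 ± 0.52 over 7 (limma adjusted p = 0.917).

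Among the dickkopf genes, Dkk1 encodes the best-known coreceptor-binding inhibitor of beta-catenin signalling. Knockout pools 1, 2, 3 and 7 had log2 signals of 0.58, 1.16, 0.64 and 1.89, against -2.03, 1.13, 1.15 and 0.35 in wild type pools 1, 2, 5 and 7. Knockout pool 7 was the highest pool and the other 6, without wild type pool 1, mixed by genotype. Over 8 arrays the difference was 0.92 ± 0.71 (limma adjusted p = 0.735), and over 7 it was 0.19 ± 0.36 (limma adjusted p = 0.858, 95% interval -0.66 to 1.04). Most of the 8-array value thus rested on wild type pool 1.

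Dkk2, which binds the same coreceptors and can block or weakly activate the pathway depending on the partners present, had an SD within groups of 0.250 over 7 arrays, below that of every other member but Rspo3. It had log2 signals of -0.59, -0.17, 0.018 and -0.35 in knockout pools 1, 2, 3 and 7, against -1.98, -0.63, -0.55 and -0.19 in wild type pools 1, 2, 5 and 7. The ranges ran side by side, with knockout pool 3 at the top and wild type pool 2 at the bottom of the 7. The difference was 0.57 ± 0.41 over 8 arrays (limma adjusted p = 0.735) and 0.19 ± 0.18 over 7 (limma adjusted p = 0.721, 95% interval -0.23 to 0.60).

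Dkk3, the divergent member of the family, whose place in Wnt signalling is less settled, came nearest to a separation of the groups. Its log2 signals were 3.53, 3.24, 3.53 and 2.80 in knockout pools 1, 2, 3 and 7, against 1.90, 3.60, 3.53 and 4.01 in wild type pools 1, 2, 5 and 7. Among the 7 arrays the knockout pools reached no higher than the lowest wild type pool but for an overlap at 3.53, and knockout pools 7 and 2 were the lowest. The difference was 0.016 ± 0.47 over 8 arrays (limma adjusted p = 0.986) and -0.44 ± 0.21 over 7 (unadjusted p = 0.0795, limma adjusted p = 0.510, 95% interval -0.94 to 0.067). Without knockout pool 7 as well, the lowest of the knockout pools, the difference was -0.28.

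Wif1, which binds Wnt ligands through its own WIF domain, was dim in the outflow tract pools and lowest in knockout pool 7. Knockout pools 1, 2, 3 and 7 had log2 signals of -2.24, -3.30, -2.18 and -3.97, against -1.87, -2.73, -2.58 and -2.36 in wild type pools 1, 2, 5 and 7. The knockout pools lay on both sides of the wild type pools, which were close together apart from pool 1. The lowest Wif1 signal was 1.66 times the lowest signal called well above background on its array. The difference was -0.53 ± 0.45 over 8 arrays (limma adjusted p = 0.735) and -0.36 ± 0.44 over 7 (limma adjusted p = 0.782, 95% interval -1.40 to 0.67).

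The R-spondins raise the response to Wnt ligands. Rspo1 had log2 signals of 0.52, -0.047, 0.70 and -0.19 in knockout pools 1, 2, 3 and 7, against -1.26, -0.53, -0.32 and 0.34 in wild type pools 1, 2, 5 and 7. Knockout pools 3 and 1 were highest, then wild type pool 7, and wild type pools 5, 2 and 1 were lowest. The difference was 0.69 ± 0.39 over 8 arrays (limma adjusted p = 0.735) and 0.42 ± 0.29 over 7 (limma adjusted p = 0.620, 95% interval -0.27 to 1.10).

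Rspo2, required in mice for limb and lung development, showed the widest spread of the 10 genes. Knockout pools 1, 2, 3 and 7 had log2 signals of -2.22, -2.52, -2.75 and -1.60, against -2.95, -0.53, -2.87 and -4.28 in wild type pools 1, 2, 5 and 7. Wild type pool 2 was 13.5-fold above wild type pool 7, and all knockout pools lay between them. The lowest Rspo2 signal was 1.35 times the lowest signal called well above background on its array, the nearest to that limit of the 10 genes, and the size of this fold rests on it. The SD between pools within groups, 1.26 over 7 arrays, was higher than that of 99.1% of all genes. The difference of 0.39 ± 0.71 over 8 arrays (limma adjusted p = 0.783) and 0.29 ± 0.80 over 7 (limma adjusted p = 0.909) had a 95% interval of -1.61 to 2.18 over 7, which held a 2-fold change in both directions.

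Rspo3, which mouse embryos need for vessels of the placenta and the embryo, was the steadiest. It had log2 signals of 3.47, 3.63, 3.40 and 3.30 in knockout pools 1, 2, 3 and 7, against 1.85, 3.45, 3.48 and 3.81 in wild type pools 1, 2, 5 and 7. In log2 signal, wild type pool 1 was far below the other 7, which lay within 1.42-fold of each other. Before scaling, the processed signal of Rspo3 in wild type pool 1 was 15142, the highest of the 8, against 8694 to 11976 in the others. The difference was 0.30 ± 0.43 over 8 arrays (limma adjusted p = 0.742) and -0.13 ± 0.13 over 7 (limma adjusted p = 0.735, 95% interval -0.44 to 0.18).

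**Figure D2:**
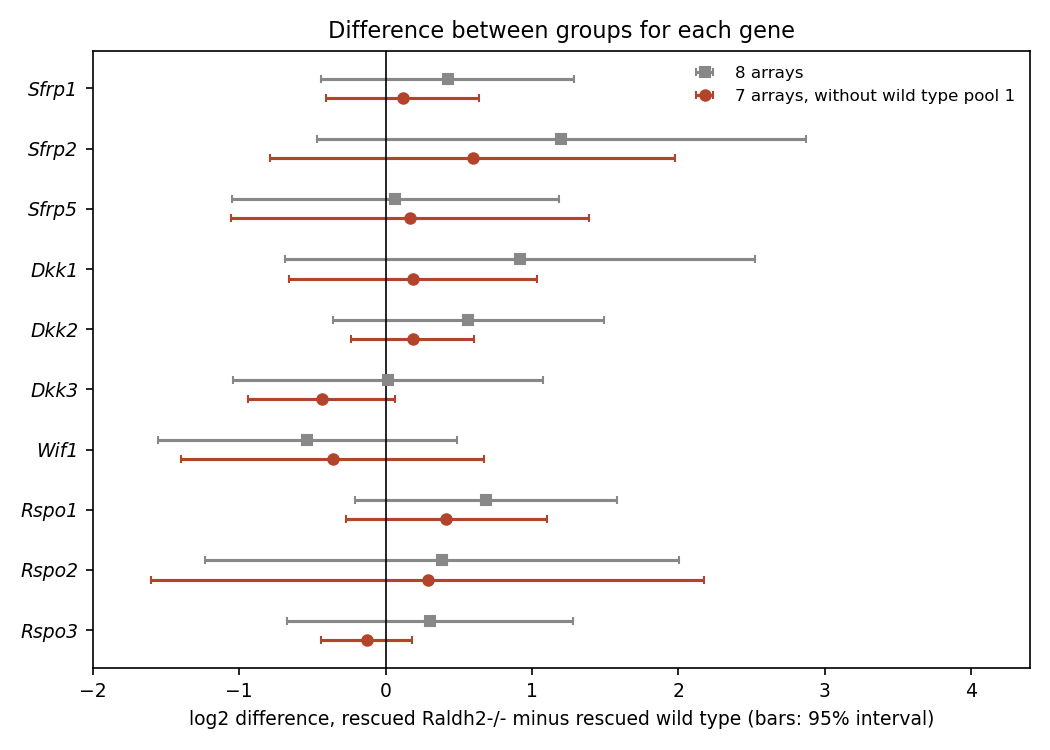
Difference in log2 signal, rescued Raldh2-/- minus rescued wild type (horizontal axis), for each of the 10 genes, over 8 arrays (grey squares) and over 7 arrays without wild type pool 1 (red circles), with 95% intervals as bars. Every interval includes 0, and the intervals of Rspo3 and Dkk2 over 7 arrays are far narrower than those of Rspo2 and Sfrp2.

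Over the set, 9 differences were positive and 1 was negative with 8 arrays, and 7 were positive and 3 negative with 7 arrays. The signs of Dkk3 and Rspo3 turned when wild type pool 1 was left out, and 8 of the 10 differences were smaller in size without it. The median difference was 0.40 over 8 arrays and 0.18 over 7, against 0.13 and 0.052 for all genes, of which 57.1% and 59.3% were positive. With arrays scaled to their median in place of the 75th percentile, the 7-array differences of Sfrp1, Sfrp5, Dkk1 and Dkk2 were also negative, at -0.089, -0.038, -0.016 and -0.020, while the median of all genes was -0.15. The 95% interval included a 2-fold change for 10 of the 10 genes over 8 arrays and for 6 over 7, and the 4 whose interval over 7 arrays lay within 2-fold were Sfrp1, Dkk2, Dkk3 and Rspo3.

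Most of the 10 genes varied more between pools of the same genotype than the median gene, though not all by much. Over 7 arrays the SD within groups exceeded the median SD of all genes, 0.207, for 9 of the 10, and Rspo3 was the exception with 0.165. The percentile of this SD among all genes ran from 36.5 for Rspo3 and 60.4 for Dkk2 to 99.1 for Rspo2. The exception among the differences was Dkk3, the 1 gene whose difference exceeded its own SD over 7 arrays (-0.44 against an SD of 0.313). The lowest of the 7 pools was wild type pool 2, wild type pool 7 or knockout pool 7 for 3 genes each. Knockout pool 3 was the highest pool for 4 genes.

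The order of the pools for some genes was set beside that of marker lists of other cell types that the dissection could hold, over the 7 arrays. The likeness was found by looking at the orders and was not tested. Rspo2 ran, from high to low over 7 arrays, as wild type pool 2, knockout pools 7, 1, 2 and 3, then wild type pools 5 and 7. The mean of the neural crest and glia markers, of which 4 of 5 were kept and Foxd3 was not, had the same order, with values relative to the mean of the 7 arrays of 0.13, 0.065, 0.0069 and 0.15 in knockout pools 1, 2, 3 and 7, against 0.42, -0.15 and -0.62 in wild type pools 2, 5 and 7. The summed signal of these markers ranged from 1.21 to 1.64 times the 75th percentile in knockout pools and from 0.82 to 1.60 in wild type pools without pool 1. The match did not extend to wild type pool 1, which was the highest of the 8 pools for these markers, at 0.54, and low for Rspo2, at -0.56 relative to the same 7-array mean.

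The pharyngeal endoderm and epithelium markers were, over the 7 arrays, highest on average in the same 2 pools as Rspo2, wild type pool 2 and knockout pool 7, and differed from it in knockout pool 3, their lowest. Their mean relative to the 7 arrays was 0.44, 0.29, -1.53 and 1.64 in knockout pools 1, 2, 3 and 7, against 1.65, -1.22 and -1.27 in wild type pools 2, 5 and 7. In wild type pool 1 it was 1.66, the highest of the 8, where Rspo2 was low. Of these 10 markers, 9, 10, 5 and 10 were well above background in knockout pools 1, 2, 3 and 7, against 10, 7 and 4 in wild type pools 2, 5 and 7. Shh, Pax9 and Foxe1 were not above background in knockout pool 3 or wild type pools 5 and 7. The summed signal ranged from 31.0 to 52.7 in knockout pools and from 39.1 to 62.8 in wild type pools without pool 1, and its highest value was in wild type pool 7, where Rspo2 and the mean of the list were low. Among the 7 arrays Krt8 and Krt18 were highest in that pool, at log2 signals of 4.50 and 5.32, and so went against the mean of their list.

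Sfrp2 was highest in wild type pool 2 and lowest of the 7 in wild type pool 7. In knockout pool 3 it was second highest, at 0.72 relative to the 7 arrays, where the endoderm list was lowest. The mean of the neural crest and glia markers shared its highest pool and, in the same order, its lowest 2. The mean of the 9 kept genes in the list of other Wnt modulators, described below, had the whole Sfrp2 order over the 7 arrays. The mean of the leukocyte markers shared the first 2 pools of the Sfrp2 order, wild type pool 2 and knockout pool 3. It also shared the lowest 2, wild type pools 5 and 7, in the opposite order. Their mean relative to the 7 arrays was 0.23, -0.40, 0.75 and -0.20 in knockout pools 1, 2, 3 and 7, against 0.80, -0.61 and -0.56 in wild type pools 2, 5 and 7. In wild type pool 1 it was 1.36, the highest of the 8, where Sfrp2 was lowest, at -2.76. The summed signal of the 6 leukocyte markers ranged from 4.08 to 8.30 in knockout pools and from 3.76 to 8.31 in wild type pools without pool 1. The part of these markers in the Rspo2 and Sfrp2 values was not tested.

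Rspo1 and Wif1 shared their top 3 of the 7 pools, knockout pools 3 and 1 and wild type pool 7, with the mean of the epicardium and mesothelium markers. The mean of these 6 markers relative to the 7 arrays was 0.22, -0.48, 0.71 and -0.54 in knockout pools 1, 2, 3 and 7, against -0.32, -0.098 and 0.51 in wild type pools 2, 5 and 7. Not every marker followed this mean. Among the 7 arrays Tcf21 was highest in wild type pool 5 (log2 signal 0.90), and Msln was lowest there (-3.88). All 6 markers were well above background on each of the 7 arrays. Their summed signal ranged from 7.29 to 14.2 in knockout pools and from 7.44 to 13.2 in wild type pools without pool 1. Wif1 and the epicardial list were both lowest in knockout pools 2 and 7, whereas Rspo1 was lowest in wild type pools 2 and 5. In wild type pool 1 the epicardial list was at -0.50, Rspo1 at -1.32 and Wif1, at its highest of the 8, at 0.90. The part of these markers in the Rspo1 and Wif1 values was not tested.

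**Figure D3:**
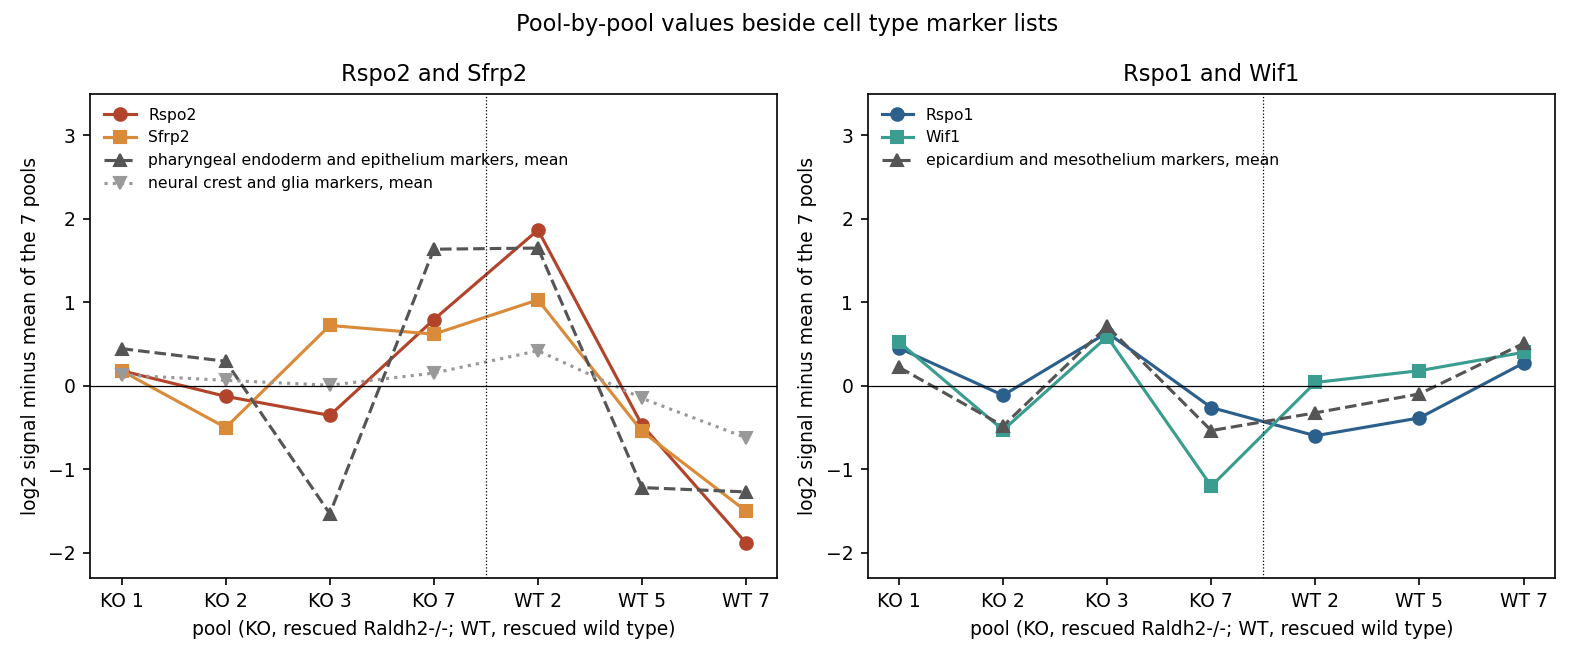
Log2 values of selected genes and mean log2 values of the marker lists relative to their mean over 7 arrays (vertical axis) across pools (horizontal axis), knockout pools left of wild type pools. Rspo2 and the means of the crest and endoderm lists peak in wild type pool 2 and are low in wild type pool 7, the endoderm list departs from Rspo2 in knockout pool 3, and wild type pool 1 is not drawn, whereas Rspo1, Wif1 and the epicardial list are high in knockout pools 1 and 3.

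Likeness of pattern was measured as the root-mean-square difference between centred log2 profiles over the 7 arrays, among 16538 other genes with a symbol. For Rspo2, whose own profile had a root-mean-square of 1.07, the closest genes were Adamts18 at 0.168 and Fam162b at 0.276. Sfrp2, with 0.828, was closest to Sema4f at 0.227 and Bdnf at 0.256. Sfrp5, with 0.687, was closest to Crygn at 0.237 and Rbakdn at 0.344. The 7 points of each profile share their arrays with every other gene, so these distances describe the pools.

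The rest of the pathway, 64 genes in 5 lists by role, gave the same result at the level of the test. Of the 51 that could be tested over 8 arrays and the 49 over 7, 0 passed an adjusted p of 0.05 with limma in either direction. At an unadjusted limma p of 0.05, 2 of the 51 passed over 8 arrays, a share above the 1.78% of all genes. Over 7 arrays 4 passed, 8.16% of those tested, below the 10.6% of all genes. The median difference of these genes was 0.17 over 8 arrays and 0.014 over 7.

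The receptors through which R-spondins and dickkopf proteins act are the nearest to the 10 genes. Lgr5, an R-spondin receptor, had log2 signals of -2.57, -2.31, -1.87 and -1.55 in knockout pools 1, 2, 3 and 7, against -3.98, -2.66, -2.63 and -4.58 in wild type pools 1, 2, 5 and 7. Every knockout pool was above every wild type pool, narrowly between knockout pool 1 and wild type pool 5, and wild type pools 1 and 7 were not well above background. The difference was 1.38 ± 0.50 over 8 arrays (unadjusted p = 0.0220, limma adjusted p = 0.735) and 1.21 ± 0.51 over 7 (limma adjusted p = 0.468). Znrf3, the ubiquitin ligase that R-spondins remove, differed by -0.54 ± 0.49 over 8 arrays and by -0.019 ± 0.13 over 7 (limma adjusted p = 0.735 and 0.966). The 5 tested genes of this list had a median of 0.017 over 8 arrays and -0.019 over 7, and Kremen2 and Lgr6 did not pass the filter on dim probes.

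Of 13 other modulators, listed together as secreted although not all are, 9 could be tested, with a median of 0.19 over 8 arrays and 0.10 over 7. Frzb, a frizzled-related antagonist, differed by 0.75 ± 0.40 and 0.47 ± 0.30 over 8 and 7 arrays (limma adjusted p = 0.735 and 0.591), and Tpbg, a membrane inhibitor of the pathway, by 0.49 ± 0.35 and 0.24 ± 0.22 (limma adjusted p = 0.735 and 0.712). Of 21 ligand and secretion genes, 14 were tested over 8 arrays and 12 over 7, with medians of -0.22 and -0.12. Wnt9a and Wnt5b had the smallest p of that list: Wnt9a differed by 0.73 ± 0.31 over 8 arrays and 0.52 ± 0.17 over 7 (limma adjusted p = 0.735 and 0.407), and Wnt5b by 0.75 ± 0.33 and 0.51 ± 0.19 (limma adjusted p = 0.735 and 0.433).

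All 15 receptor and coreceptor genes were tested, and the signs of that list turned with wild type pool 1: 12 differences were positive over 8 arrays and 7 were over 7 arrays. Fzd4 differed by 0.89 ± 0.47 and 0.42 ± 0.18 over 8 and 7 arrays (limma adjusted p = 0.735 and 0.472), and Ryk, a Wnt receptor of another kind, by 0.74 ± 0.42 and 0.32 ± 0.16 (limma adjusted p = 0.735 and 0.507). Over 7 arrays Fzd8 and Ror2 were lower in every knockout pool than in every wild type pool, by -0.23 ± 0.10 and -0.29 ± 0.11 (limma adjusted p = 0.479 and 0.434). With Lgr5 that made 3 of 49 genes without overlap, 6.12% against 11.4% of all genes, and over 8 arrays it was Lgr5 alone, 1.96% against 5.49%.

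Readouts of canonical signalling showed no difference past the threshold either. Tcf7, a target and effector of the pathway, differed by 0.55 ± 0.28 over 8 arrays and 0.45 ± 0.19 over 7 (limma adjusted p = 0.735 and 0.472), and Nkd1, a feedback inhibitor, by 0.39 ± 0.38 and 0.028 ± 0.10 (limma adjusted p = 0.735 and 0.932). The median of the 8 target genes was 0.28 over 8 arrays and 0.15 over 7.

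**Figure D4:**
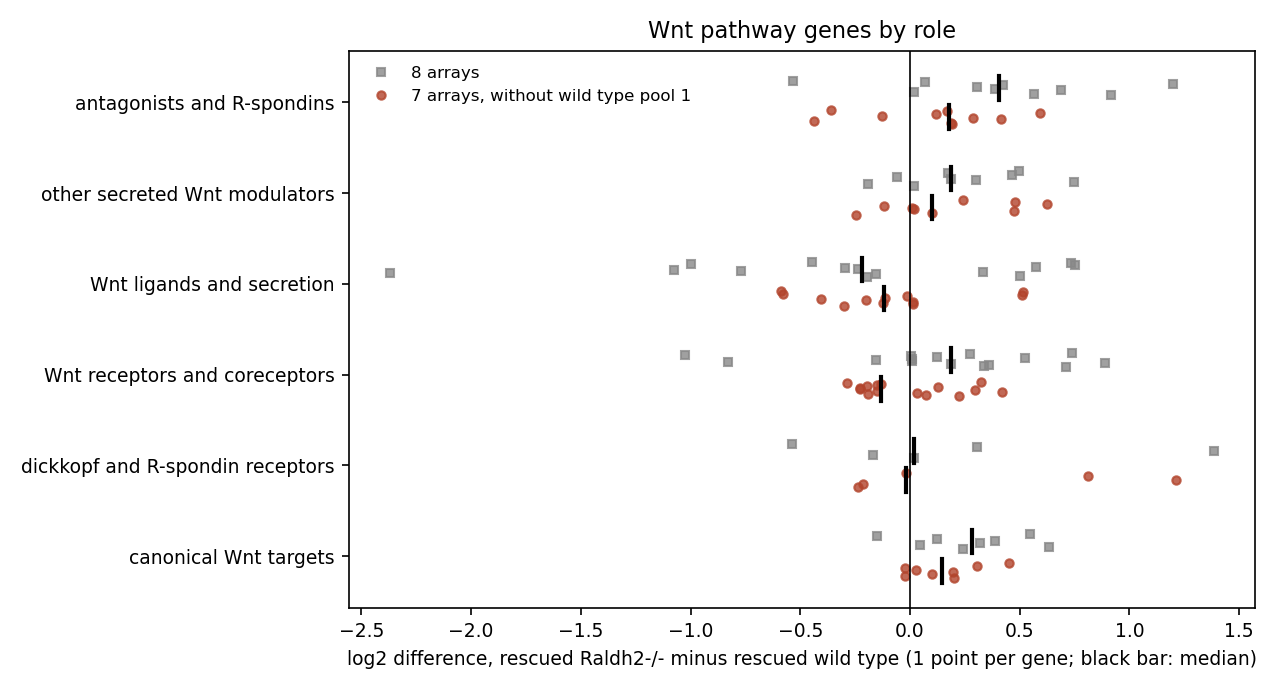
Difference in log2 signal, rescued Raldh2-/- minus rescued wild type (horizontal axis), of the tested pathway genes grouped by role (vertical axis), over 8 and over 7 arrays. Points are genes and black bars are medians, the 10 antagonists and R-spondins stand in the top row, none passed an adjusted p of 0.05, and the spread of the points narrows without wild type pool 1.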

How the data were processed

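The authors deposited 1 scanner file per array and a matrix over all arrays. Per the file headers, Agilent Feature Extraction 10.7.3.1 (protocol GE1_107_Sep09, array design 028005, build mm9) gave a background-subtracted and detrended intensity, linear and not scaled between arrays. The deposited matrix held the same intensity rounded to 3 significant digits. Per the labels, RNA was extracted on columns without DNase, had an integrity number over 8, and 50 ng was labelled with Cy3.

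Spots of 1 probe were averaged (55681 probes). Log2 signals were taken relative to the 75th percentile of the array. Probes had to be well above background on 3 or more arrays of either group (33404 probes), and the brightest of them on average represented each gene. Differences are knockout minus wild type, from two-sided limma tests (version 3.58.1, R 4.3.3, lmFit then eBayes), adjusted by Benjamini-Hochberg over all genes at a threshold of 0.05 and tested on simulated data. Aldh1a2 was also tested by exact permutation. The number of arrays limits the precision. The members and the pathway and marker lists were chosen with earlier results of these data known. Named genes were all members, the 2 of each pathway list with the smallest p, and the closest profiles to the 3 most variable members. Fzd8, Ror2, Krt8, Krt18, Tcf21 and Msln, and the lists set beside a member, were named after their values were seen. Alternatives were scaling, background, filter, probe rule, array weights, blocks and pools left out. Leaving out wild type pool 1 was a listed alternative, and pairing it with each other pool was chosen after seeing the data. Pool numbers 1, 2 and 7 occur in both groups, and the labels do not state pairs. The results above use no block because the labels give groups and not pairs. Deviations of same-numbered pools from their group means correlated at r = -0.15, 0.32 and -0.41 over 8 arrays, where wild type pool 1 enters the wild type mean. Without wild type pool 1 they correlated at 0.046 (number 2) and -0.038 (number 7), so the 8-array values say little about pairing.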

Additional observations from a re-analysis of the deposited data

Results flagged for a closer look

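In 7 of 50 groups of 4 pools or arrays, 1 value lay far from the other 3, where chance alone gives about 1 in 20, or 2.5. Sfrp5 was -1.13 in knockout pool 7, against -2.36 to -2.19 in the other knockout pools. Aldh1a2 was 0.059 in the same pool, against 1.87 to 2.02, and the median correlation of that array with the others was 0.967, against 0.984 for the other knockout arrays. The other 4 were wild type pool 1. Its array had a median processed signal of 2023, against 40.0 to 56.9 on the other wild type arrays, and a median correlation of 0.682, against 0.979 to 0.985. Its mean over the endothelial markers was -1.26, against -0.067 to 0.14, and over the smooth muscle markers -1.29, against -0.020 to 0.072. The cause was not tested.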

How the results depend on the processing

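Over 32 alternatives, 25 planned and 7 added after the arrays were seen, 0 members passed the threshold in any. Sfrp2 was positive in all 32 but ranged from 0.014, without wild type pools 1 and 7, to 2.20, with quantile normalization. Without wild type pool 1 (14 alternatives), Dkk3, Wif1 and Rspo3 were negative throughout, with the smallest sizes at -0.28, -0.013 and -0.016. The median of the members, 0.40 as reported, was 1.18 under quantile normalization, 0.95 with median scaling and -0.014 with array weights. Over 7 arrays it was -0.029 with median scaling. Over the 6 arrays without wild type pools 1 and 7 it was -0.0012, so its sign depends on these settings. Genes past the threshold, 0 as reported, were 8 with array weights and, without wild type pool 1, 22 with median scaling. With 1 pool left out they were 0, and with wild type pool 1 and 1 further pool left out they were 0 to 10, with 1 without knockout pool 7 and 10 without wild type pool 5. Median scaling moved the median of all genes to 0.67 over 8 arrays and to -0.15 over 7. Members whose sign turned over 8 arrays were, with quantile normalization, Dkk3 -0.45, Wif1 0.34 and Rspo3 -0.17, with median scaling, Wif1 0.0061, with normexp, Dkk3 -0.47, Wif1 0.067 and Rspo3 -0.18, and with array weights, Sfrp5 -0.059, Dkk1 -0.073, Dkk3 -0.28 and Rspo3 -0.055. Without wild type pool 1, Dkk3 and Rspo3 were -0.46 and -0.16 with quantile normalization, -0.48 and -0.14 with normexp, -0.44 and -0.13 with the mean of the probes of a gene or with no filter, and -0.64 and -0.34 with median scaling. Median scaling of those 7 arrays also gave Sfrp1 -0.089, Sfrp5 -0.038, Dkk1 -0.016 and Dkk2 -0.020. With 1 pool, or wild type pool 1 and 1 other, left out, the lowest and highest differences were -0.040 and 0.59 for Sfrp1, 0.014 and 1.86 for Sfrp2, -0.42 and 0.61 for Sfrp5, -0.085 and 1.25 for Dkk1, -0.53 and 0.27 for Dkk3, -0.78 and -0.013 for Wif1, -0.57 and 1.30 for Rspo2 and -0.20 and 0.52 for Rspo3. The cause of these changes was not tested.

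With the pool number as a replicate block, 0 genes passed over 8 arrays and the median of the members was 0.46. Over 7 arrays with the block, 0 genes passed, the median was 0.065, and the negative differences against the 8-array sign were Sfrp1 -0.091, Dkk3 -0.79, Rspo1 -0.024 and Rspo3 -0.16. The labels do not say that the numbers pair the pools.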
